A study of Homo sapiens with 18 samples.

Results

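The tyrosine tRNAs with the anticodon GTA carry tyrosine to the ribosome. All genes whose name starts with tRNA-Tyr-GTA were taken from the deposited table, which gave 8 of its 180 tRNA genes and 42 of its 725 adenosine sites. The table came from m1A-MAP-seq of small RNA of WPMY-1, an immortalised human prostate stromal cell line. In this assay RNA is captured with an antibody to N1-methyladenosine (m1A), and the captured RNA is divided into a portion treated with the demethylase AlkB and a portion left untreated, beside the input RNA. The study addressed the effect of TRMT61A on m1A in tRNA by expressing an shRNA against it. The 6 groups had 3 libraries each: input, AlkB-untreated IP (the immunoprecipitated RNA) and AlkB-treated IP of cells with the vector (TRMT61A wildtype) and the same 3 fractions of cells with the TRMT61A knockdown. The labels do not say whether a line was a clone or a pool, nor whether the replicates were separate cultures, so each p-value below speaks of the variation among 3 libraries, part or all of which may be technical. TRMT61A mRNA was not analysed here, so the knockdown itself was not checked.

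In the cytosol, m1A at position 58 of the T-loop is made by a complex in which TRMT61A is the catalytic subunit and TRMT6 the partner that helps to bind the tRNA. The methyl group sits on the Watson-Crick face of the base, so reverse transcriptase tends to stop there or to insert a wrong base, and AlkB can remove the methyl group. Human nuclear tyrosine tRNA genes are known for an intron just 3′ of the anticodon, which is cut out before the tRNA is used, so positions were counted from the 3′ end.

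Of the 8 genes, 7 matched a RefSeq tRNA gene and had sites at the 3′ end. Their 3′ exons of 36 bases, tRNA positions 38 to 73, are shown because their differences decide which reads can be told apart and where a further adenosine adjoins A58. They came in 4 versions, printed from the gene sequences of the table with the T-loop, positions 54 to 60, in capitals.
Tyr-GTA-2-1: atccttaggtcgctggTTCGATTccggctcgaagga
Tyr-GTA-7-1: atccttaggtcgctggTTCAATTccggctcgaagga
Tyr-GTA-8-1: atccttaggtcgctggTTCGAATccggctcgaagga
Tyr-GTA-6-1: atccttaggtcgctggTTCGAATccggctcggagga
Tyr-GTA-5-4 and Tyr-GTA-5-5 had the 3′ exon of Tyr-GTA-2-1, and Tyr-GTA-3-1 had that of Tyr-GTA-6-1. Counted by tRNA position with Tyr-GTA-2-1 as the reference, Tyr-GTA-7-1 differs by G57A, Tyr-GTA-8-1 by T59A, and Tyr-GTA-3-1 and Tyr-GTA-6-1 by T59A and A69G. The T59A genes therefore have an adenosine at 59 next to A58.

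The 8 genes lie on 4 chromosomes of hg38. Tyr-GTA-2-1 is at chr2:27050782-27050870 on the plus strand. On chromosome 6, plus strand, are Tyr-GTA-8-1 at 26575570 to 26575659, Tyr-GTA-3-1 at 26577104 to 26577192 and Tyr-GTA-6-1 at 26594874 to 26594962. On chromosome 14 are Tyr-GTA-7-1 at 20659958 to 20660051 and Tyr-GTA-5-4 at 20663192 to 20663285, both on the minus strand, and Tyr-GTA-5-5 at 20683273 to 20683361 on the plus strand. Their introns are 16 to 21 bases long. The whole Tyr-GTA-2-1 gene is printed with its intron in capitals, because it is the member with listed sites inside the intron.
Tyr-GTA-2-1, whole gene: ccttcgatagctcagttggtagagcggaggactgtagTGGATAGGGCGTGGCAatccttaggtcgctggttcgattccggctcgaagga

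The remaining member, Tyr-GTA-9-1 on chromosome 8, had 1 listed site, A14, with 0 to 3 reads in each input library. Neither A58 nor a 3′-end site of it was listed.

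Summed over all sites, the counts came to between 225301 and 307981 in an input library and between 115580 and 890428 in an IP library. A read that covers several sites counts more than once in these sums. Replicates of every group differed by more than counting noise. Reads at the tyrosine sites fell sharply at A58. To follow this, read-through was taken as the reads at A58 divided by the median reads at the listed sites 0 to 8 nucleotides from the 3′ end, in percent. It could be formed for 6 tyrosine genes, of 66 tRNA genes in all. It was tested per gene over all tRNA genes with at least 20 3′-end reads in every library of a comparison, with limma on the log2 ratio and Benjamini-Hochberg adjustment, and a gene was called at an adjusted p under 0.05.

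Tyr-GTA-2-1, 5-4, 5-5 and 7-1 had nearly equal read counts in every input library (for example 1692, 1740, 1722 and 1819 3′-end reads in the first vector input library). Tyr-GTA-2-1, 5-4 and 5-5 are alike over the last 36 bases, and Tyr-GTA-7-1 shares the last 16 bases with them. A read that ends at or 3′ of A58 cannot be assigned to 1 of them, so their values are not independent and are also given summed, as the group of 4. Tyr-GTA-3-1 and 6-1 form a further such pair. Tyr-GTA-8-1 shares its last 14 bases with the group of 4, so a read that ends 3′ of A59 cannot be assigned between them, and the 3′-end reads under its read-through are not independent of theirs.

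In the input RNA, knockdown cells had 2.06 times the read-through of vector cells in the group of 4. It was 2.37%, 1.75% and 1.86% in the vector libraries and 3.48%, 4.25% and 4.57% in the knockdown libraries. All 3 knockdown libraries lay above all 3 vector libraries, and the mean went from 1.99% ± 0.328 to 4.10% ± 0.561 (SD, n = 3).

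Tyr-GTA-2-1 had 2.25%, 1.46% and 1.82% in vector and 4.65%, 5.41% and 4.78% in knockdown. Its log2 change of 1.43 (SE 0.174) had an adjusted limma p of 0.00897. Among the others, read-through rose from 2.57% to 4.95% in Tyr-GTA-5-4 (log2 0.92, SE 0.206), from 2.40% to 3.68% in Tyr-GTA-5-5 (log2 0.62, SE 0.164) and from 1.17% to 2.83% in Tyr-GTA-7-1 (log2 1.25, SE 0.320), with adjusted p of 0.0423, 0.0431 and 0.0431.

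Tyr-GTA-6-1 had by far the fewest reads past its T-loop, with 5, 4 and 3 reads at A58 against 2844, 2037 and 2314 at the 3′ end in vector input, or 0.167% ± 0.0342 (SD, n = 3). In knockdown input it had 4, 4 and 9 reads against 1101, 1326 and 1168, or 0.479% ± 0.255. The lines did not overlap. Its log2 change was 1.38 (SE 0.367) with an adjusted p of 0.0431 in the limma fit across all genes. The rise thus rests on 3 to 9 reads at A58 per library. Tyr-GTA-8-1 had 1.55%, 1.39% and 1.72% in vector and 1.14%, 2.90% and 3.22% in knockdown, which overlap (log2 0.52, SE 0.409, adjusted p = 0.352).

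Thus 5 of the 6 tyrosine genes were called higher. Over all tRNA genes tested, 30.8% were called higher (16 of 52), and 51.9% had knockdown libraries all above vector libraries, against 5 of the 6 tyrosine genes. The median log2 change was 1.08 over the 6 tyrosine genes and 0.44 over all 52 genes. The number of tyrosine calls lay between 0 and 4 when any single library was left out, with 1 call without the first or second vector library or the second knockdown library and 0 without the third library of either line. In these fits Tyr-GTA-6-1 and 7-1 were never called, while the log2 change of Tyr-GTA-2-1 stayed between 1.28 and 1.58.

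The tyrosine tRNAs also stood at the low end of the read-through order. Among 56 genes with enough reads in vector input, Tyr-GTA-6-1 ranked 1 from the lowest, and Tyr-GTA-7-1, 8-1, 2-1, 5-5 and 5-4 ranked 5 to 9, with means from 1.17% to 2.57%. Ranks 2 to 4 were Val-AAC-1-1, Val-AAC-4-1 and Val-CAC-1-7 at 0.871%, 0.944% and 1.03%. From rank 5 to 9 each gene overlapped the next in its libraries, so their order is not resolved. The 10 listed sites of tyrosine 5′ exons held 0 to 10 reads in vector input. Whether reads across the exon junction were counted was not tested, so the order against tRNAs without an intron is uncertain. All other tRNAs summed went from 13.3% ± 0.168 to 20.9% ± 1.19 (SD over the 3 input libraries of vector and of knockdown).

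**Figure D1:**
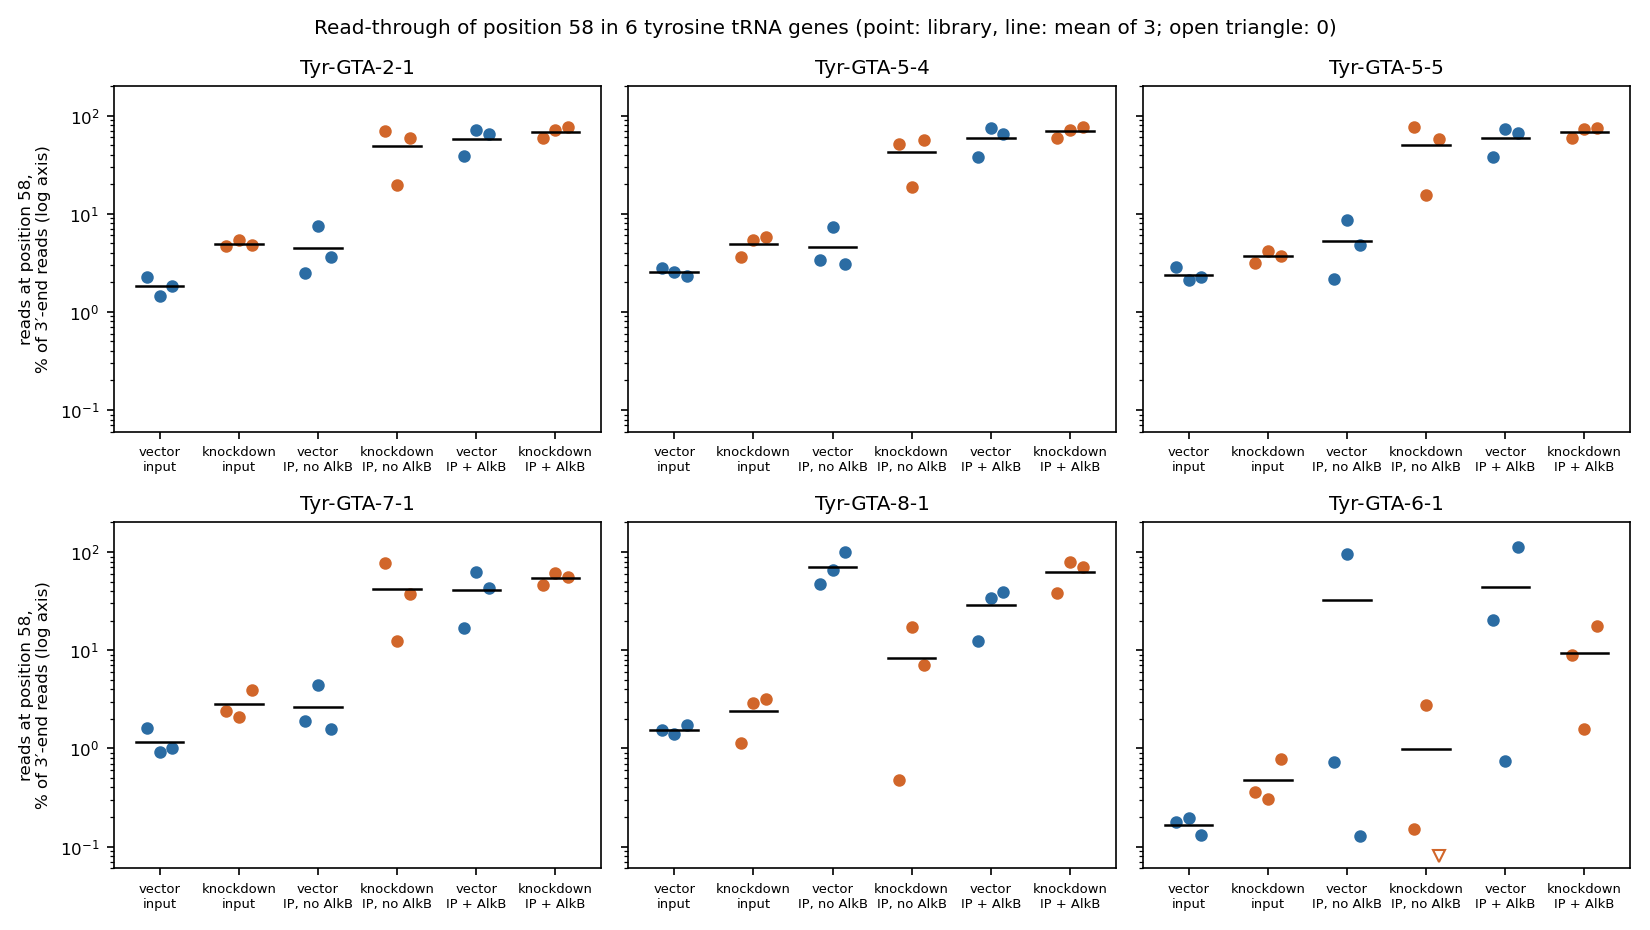
Reads at position 58 as a percentage of 3′-end reads, on a log axis, for the 6 tyrosine tRNA genes in the 6 groups. Each point is 1 library, the line is the mean of 3, and the open triangle marks a library with 0 reads at position 58. Tyr-GTA-2-1, 5-4, 5-5 and 7-1 were low in both inputs and the vector AlkB-untreated IP and high in the other 3 groups, whereas Tyr-GTA-8-1 was high in the vector AlkB-untreated IP.

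In the RNA bound by the m1A antibody and left without AlkB, the ratio between the lines was larger. Vector cells had 2.49%, 6.97% and 3.30% read-through in the group of 4. Knockdown cells had 67.4%, 16.5% and 54.0%. The lowest knockdown library thus lay above the highest vector library, and the means were 4.25% ± 2.39 and 45.9% ± 26.4 (SD, n = 3), a ratio of 10.8. All 6 genes summed had a mean of 25.0% ± 12.2 in vector and 23.2% ± 25.3 in knockdown cells, a ratio of 0.926. That sum does not depend on how shared reads were assigned among the 6 genes. It can still depend on how reads were divided between Tyr-GTA-6-1 and Tyr-GTA-3-1, which lists no A58 and is not in it. The vector libraries of that sum lay at 11.9%, 27.3% and 36.03%. The knockdown libraries lay at 2.91%, 15.2% and 51.48%, below, among and above those of vector.

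Per gene, the log2 change was 3.38 (SE 0.668) for Tyr-GTA-2-1, 3.13 (SE 0.589) for Tyr-GTA-5-4, 3.15 (SE 0.819) for Tyr-GTA-5-5 and 3.77 (SE 0.794) for Tyr-GTA-7-1. None passed the test, with adjusted limma p of 0.0683, 0.0683, 0.123 and 0.0683. Tyr-GTA-8-1 went the opposite way. It had 47.0%, 65.5% and 99.7% in vector and 0.476%, 17.4% and 7.11% in knockdown, without overlap (log2 -4.08, SE 1.39, adjusted p = 0.276).

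Here limma called 0% of the genes (0 of 44), the quasi-binomial model called 0 tyrosine genes, and 5 genes had an unadjusted p under 0.05, which were these 5 tyrosine genes. Knockdown libraries lay all above vector libraries in 9.09% of the genes tested, that is in 4 of 44, and these 4 were the tyrosine genes. The single gene with all knockdown libraries lower was Tyr-GTA-8-1. The median log2 change over all 44 genes was -0.05. Without the second knockdown library, the lowest of its group, the 4 genes passed the test. In every fit that left out 1 library their log2 changes stayed between 2.63 and 4.47, and that of Tyr-GTA-8-1 between -5.15 and -2.58.

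The knockdown libraries behind these values were uneven. The first held 30 to 43 3′-end reads per gene of the group of 4, with 97 of 144 reads at A58 in all (Wilson 95% interval 59.3% to 74.5%, which covers counting error only). The second held 293 of 1776 and the third 2085 of 3864. The third also had reads along the whole Tyr-GTA-2-1 gene, described with the intron below, and the part of those reads in its read-through was not tested. Without the third knockdown library the log2 change of Tyr-GTA-2-1 was 3.16, with an adjusted limma p of 0.343.

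Tyr-GTA-6-1 could not be tested in this comparison because the third knockdown library held 16 of its 3′-end reads. Its read-through was 0.722%, 96.4% and 0.128% in the vector libraries and 0.150%, 2.80% and 0 of 16 reads in the knockdown libraries. The second vector library alone was high, and the groups overlapped.

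Treatment with AlkB raised read-through of the group of 4 in vector cells 13.1 times. It was 34.2%, 71.0% and 61.9% in the AlkB-treated libraries against 2.49%, 6.97% and 3.30% in the untreated libraries of the same numbers, or 55.7% ± 19.2 against 4.25% ± 2.39 (SD, n = 3). Every treated library of the group lay above every untreated one. All 6 genes summed had 29.4%, 64.3% and 59.7% with AlkB against a mean of 25.0% without, a ratio of 2.04. Treated and untreated values overlapped as groups, while each treated library lay above the untreated one of the same number.

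The fit paired libraries of the same number, since both portions come from the same eluted RNA. The log2 change was 3.76 (SE 0.339) for Tyr-GTA-2-1, 3.71 (SE 0.362) for Tyr-GTA-5-4, 3.63 (SE 0.355) for Tyr-GTA-5-5 and 3.88 (SE 0.434) for Tyr-GTA-7-1. Their adjusted limma p were 0.00759, 0.00759, 0.00759 and 0.00968. These 4 were all that limma called among 45 tRNA genes, so that 8.89% of the genes were called higher, and they were also the 4 genes without overlap in that direction (8.89%). The median log2 change over all 45 genes was 0.45.

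Tyr-GTA-8-1 was again opposed, with 12.5%, 33.9% and 39.5% in the treated against 47.0%, 65.5% and 99.7% in the untreated vector libraries (log2 -1.40, SE 0.339, adjusted p = 0.130). It was the single gene of the 45 with all treated libraries below all untreated ones. Tyr-GTA-6-1 had 20.4%, 0.748% and 112% after AlkB, the last from 142 reads at A58 against 126.5 at the 3′ end, and was not called (log2 2.38, SE 3.42, adjusted p = 0.763). When the first or the second pair of libraries was left out, which leaves 2 pairs, none of the 4 genes was called, while their log2 changes stayed between 3.39 and 4.27 over all pairs left out.

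In knockdown cells the ratio of the group of 4 was smaller, whereas that of all 6 genes summed was 2.67 (61.9% ± 10.8 against 23.2% ± 25.3). For that sum the groups again overlapped, while each treated library lay above the untreated one of the same number. The group of 4 had 56.0%, 69.8% and 72.4% with AlkB against 67.4%, 16.5% and 54.0% without, or 66.1% ± 8.81 against 45.9% ± 26.4 (SD, n = 3), a ratio of 1.44. The summed libraries overlapped, and log2 changes of the 4 genes ran from 0.66 to 0.86 with adjusted limma p of 0.696 to 0.749. Tyr-GTA-8-1 had 37.8%, 78.4% and 69.9% with AlkB and 0.476%, 17.4% and 7.11% without (log2 3.89, SE 0.949, adjusted p = 0.685). Limma called 0 of 39 genes (0%), the quasi-binomial model called 0 tyrosine genes, and 1 gene, Tyr-GTA-8-1, had an unadjusted p under 0.05. Treated libraries lay all above untreated ones in 7.69% of the genes (3 of 39), among them Tyr-GTA-5-4 and 8-1.

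The difference between the AlkB effects of both lines was tested with an interaction term over the 12 IP libraries, a test chosen after seeing the data. The AlkB effect on log2 read-through in knockdown minus that in vector cells was -3.10 (SE 0.760) in Tyr-GTA-2-1 and -2.85 (SE 0.697) in Tyr-GTA-5-4, both with an adjusted limma p of 0.0413. It was -2.89 (SE 0.903) in Tyr-GTA-5-5 and -3.19 (SE 0.981) in Tyr-GTA-7-1, and 5.29 (SE 1.53) in Tyr-GTA-8-1, each with an adjusted p of 0.0711. Of the 38 genes tested, 5.26% were called (2 genes), both from tyrosine copies that share reads. This fit did not pair the libraries. With each line's replicate number as a block, 3 tyrosine genes were called, Tyr-GTA-2-1, 5-4 and 8-1, each with an adjusted limma p of 0.0466. How many of all genes the blocked fit called was not counted. The number of tyrosine calls ran from 0 to 5 when 1 library was left out. It was 0 in 9 of these 12 fits, among them the fit without the third knockdown library left untreated, 1 without the first, and 4 or 5 without the second untreated library of vector or knockdown.

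After AlkB, no difference between the lines passed the test. The group of 4 had 34.2%, 71.0% and 61.9% in vector and 56.0%, 69.8% and 72.4% in knockdown, which overlap. Log2 changes of the 6 tyrosine genes ran from -0.96 to 1.21 with an adjusted limma p of 0.769, limma called 0 of 44 genes (0%), 0 had an unadjusted p under 0.05 and the quasi-binomial model called 0 tyrosine genes. Tyr-GTA-8-1 had the largest of these changes, from 28.6% ± 14.2 to 62.0% ± 21.4 (SD, n = 3, log2 1.21, SE 0.541).

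**Figure D2:**
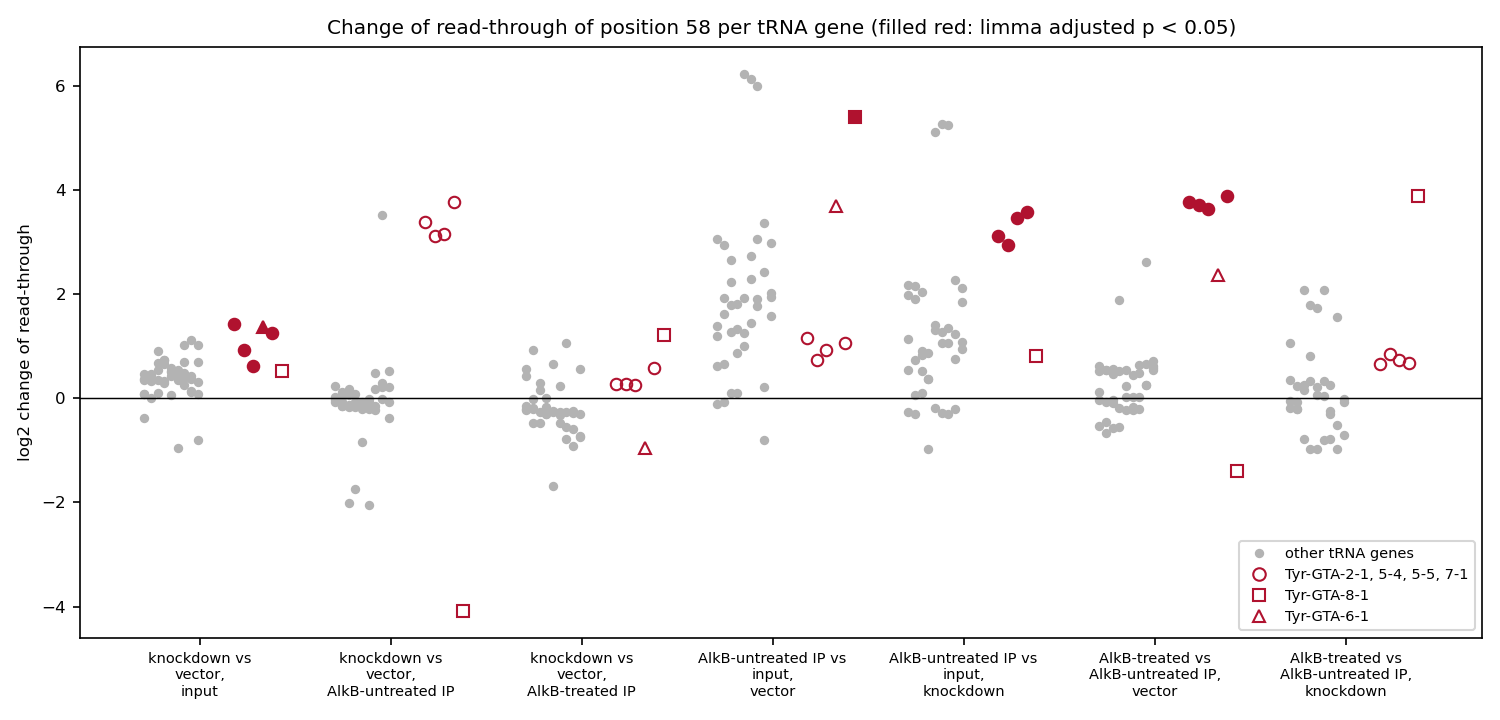
Log2 change of read-through in each of 7 comparisons, 1 point per tRNA gene. Grey points are other tRNA genes, red circles Tyr-GTA-2-1, 5-4, 5-5 and 7-1, the square Tyr-GTA-8-1 and the triangle Tyr-GTA-6-1, and filled red marks an adjusted limma p under 0.05. In the vector AlkB comparison the 4 circles lie between 3.63 and 3.88 and the square at -1.40.

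Each AlkB-untreated IP was also set against the input of its line. In vector cells the group of 4 went from 1.99% to 4.25%, and none of the 4 genes was called (log2 0.74 to 1.16, adjusted limma p 0.161 to 0.245). Tyr-GTA-8-1 was the tyrosine gene called there, with 1.55% in input and 70.7% ± 26.8 in the IP (log2 5.41, SE 0.258, adjusted p = 0.00496), where 53.3% of all genes tested were called higher (24 of 45). In the limma fit across all genes its call was lost without the second input library (adjusted p = 0.0522) and kept without the second IP library (adjusted p = 0.0486). That IP library held 29 3′-end reads of it. Tyr-GTA-6-1, at log2 3.69 (SE 2.14), was not called, with an adjusted p of 0.217 in the limma fit across all genes. IP libraries lay all above input libraries in 4 of the 6 genes and in 77.8% of all genes. In knockdown cells the group of 4 went from 4.10% to 45.9%, and all 4 genes were called (log2 2.95 to 3.58, adjusted p 0.0241 to 0.0269), where 45.5% of all genes were called higher (20 of 44). Without the third pair no tyrosine gene was called, and without the first IP library 2 were. All other tRNAs summed had 75.4% ± 16.5 (SD, n = 3) in this fraction of vector cells and 65.0% ± 4.11 in that of knockdown cells.

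Whether the knockdown effect in the IP exceeded that in input was tested with a second interaction term. The excess was 1.95 to 2.53 on the log2 scale in the 4 genes and -4.60 in Tyr-GTA-8-1, each with an adjusted limma p of 0.143, and 0 of 41 genes were called (0%, with 8 genes at an unadjusted p under 0.05).

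Tyr-GTA-8-1, 6-1 and 3-1 list A59 as well, which splits the loss of reads into 2 steps. In vector input, 34.9% ± 2.42 of the reads of Tyr-GTA-8-1 at position 70 also covered A59, and 4.49% ± 0.776 of those at A59 were left at A58 (SD, n = 3). In knockdown input the same steps were 33.2% ± 5.60 and 7.59% ± 4.24, and the libraries overlapped at both steps. Reads that end 3′ of A59 are alike in Tyr-GTA-8-1 and the group of 4, so the first step does not show where its own reads ended. Few of the reads at A59 were left at A58 in either line.

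Tyr-GTA-6-1 and 3-1 lost more reads before A59, where 13.4% ± 0.533 and 12.7% ± 0.938 of the vector input reads remained (SD, n = 3). From A59 to A58, Tyr-GTA-6-1 kept 1.25% ± 0.210 in vector and 3.44% ± 1.80 in knockdown input. The lowest knockdown library, at 1.97%, lay above the highest vector library, at 1.43%.

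In the IP libraries these steps varied from library to library. At the step from A59 to A58, Tyr-GTA-8-1 kept 439 of 749, 19 of 29 and 2464 of 2469 reads in the vector libraries without AlkB, and 11 of 2308, 94 of 516 and 14 of 20 in the knockdown libraries. The last of these, 70.0% of 20 reads, lay within the vector range of 58.6% to 99.8%, so at this step the groups overlapped. The low A58 value of the third knockdown library came with few reads at A59, which were 10.2% of those at position 70.

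Tyr-GTA-6-1 kept 2 of 13, 297 of 300 and 2 of 1556 reads from A59 to A58 in the vector AlkB-untreated libraries. Its A59 share of the reads at position 70 was 4.69%, 97.4% and 99.6%, and that of Tyr-GTA-3-1, which has the same 3′ exon, was 2.50%, 97.8% and 99.4%. Reads that end within the 3′ exon cannot be told apart between these copies, so their agreement is not a separate observation. The libraries of 1 group differed by far more than counting error.

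**Figure D3:**
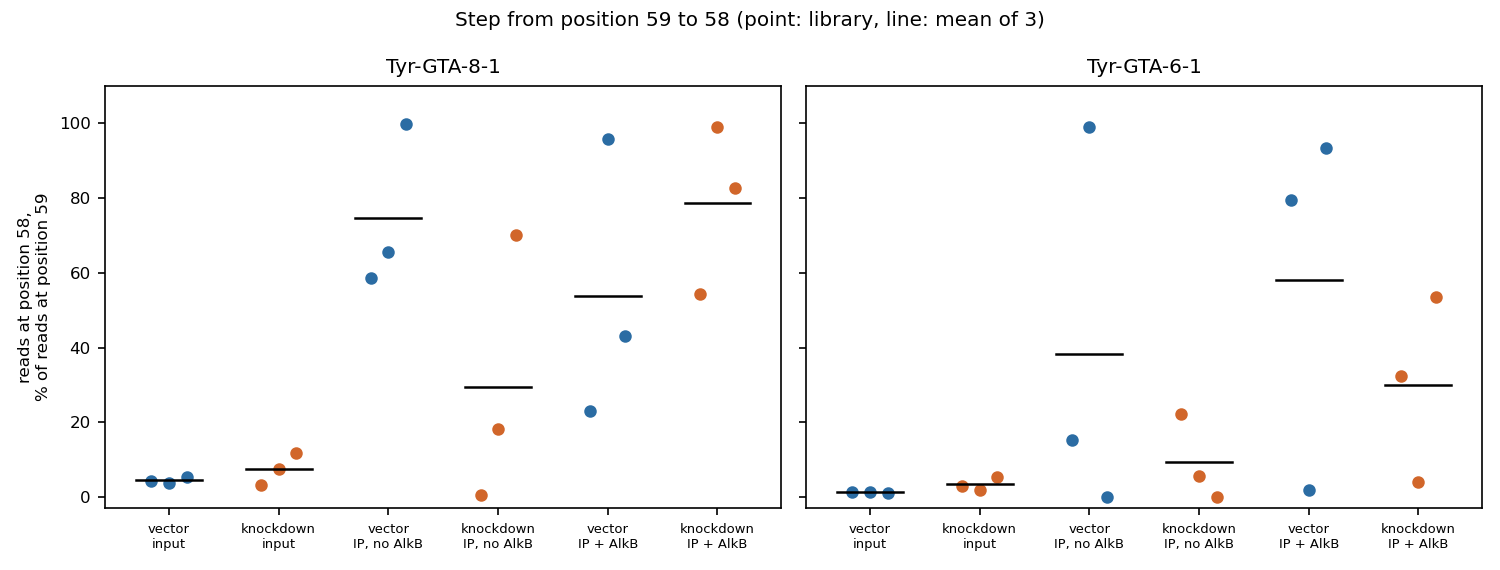
Reads at position 58 as a percentage of reads at position 59 in Tyr-GTA-8-1 and Tyr-GTA-6-1, by group, on a linear axis. Points are libraries and lines are means of 3. The input libraries lie between 1.02% and 11.8%, whereas Tyr-GTA-6-1 spread from 0.129% to 99.0% over the 3 vector IP libraries without AlkB.

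The intron of Tyr-GTA-2-1 carried more input reads than the adjoining exon sites. At intron base 4 the vector input libraries had 74, 57 and 52 reads and the knockdown input libraries 22, 41 and 26. The adenosine before the intron, A36, had 2 to 7 reads and the one after it, A38, had 3 to 15. All 6 input libraries had more reads at each of the 3 listed intron bases (4, 6 and 16) than at either neighbour.

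Relative to reads at position 73, intron base 4 stood at 4.22% ± 0.518 in vector input. In knockdown input it was 3.39% ± 1.17 (SD, n = 3), with overlapping libraries and no test. Introns of the other members had no listed site. Which reference the reads were aligned to, spliced or unspliced, is not given in the sources used here, and how reads across the exon junction were counted was not tested.

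In the IP fractions, intron base 4 had 0 or 1 reads in 10 of 12 libraries. The exceptions were 2 of the 3 knockdown libraries without AlkB. The second had 91 reads from intron base 4 to A38 and 0 at A36, beside 87 reads at A58. The third had 1215 reads at every site from A36 to A38, more than the 626 at A58 and the 1066 at the 3′ end. The first had 0 intron reads, with 25 of 36 reads at A58.

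The third library also differed at the 10 listed sites of the 5′ exon, A14, A21, A23 and A36 of 6 genes. It had 167 to 1215 reads at each (167 at A14 of Tyr-GTA-9-1), where the other 2 knockdown libraries without AlkB had 0. Its counts sum to 2962 over the sites, in which a read that covers several sites counts more than once. The input libraries had 0 to 12 reads at each of these sites, and the other IP libraries had 0 or 1 except for the second vector library with AlkB, which had up to 28. In input the 5′ exons were thus almost uncovered.

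**Figure D4:**
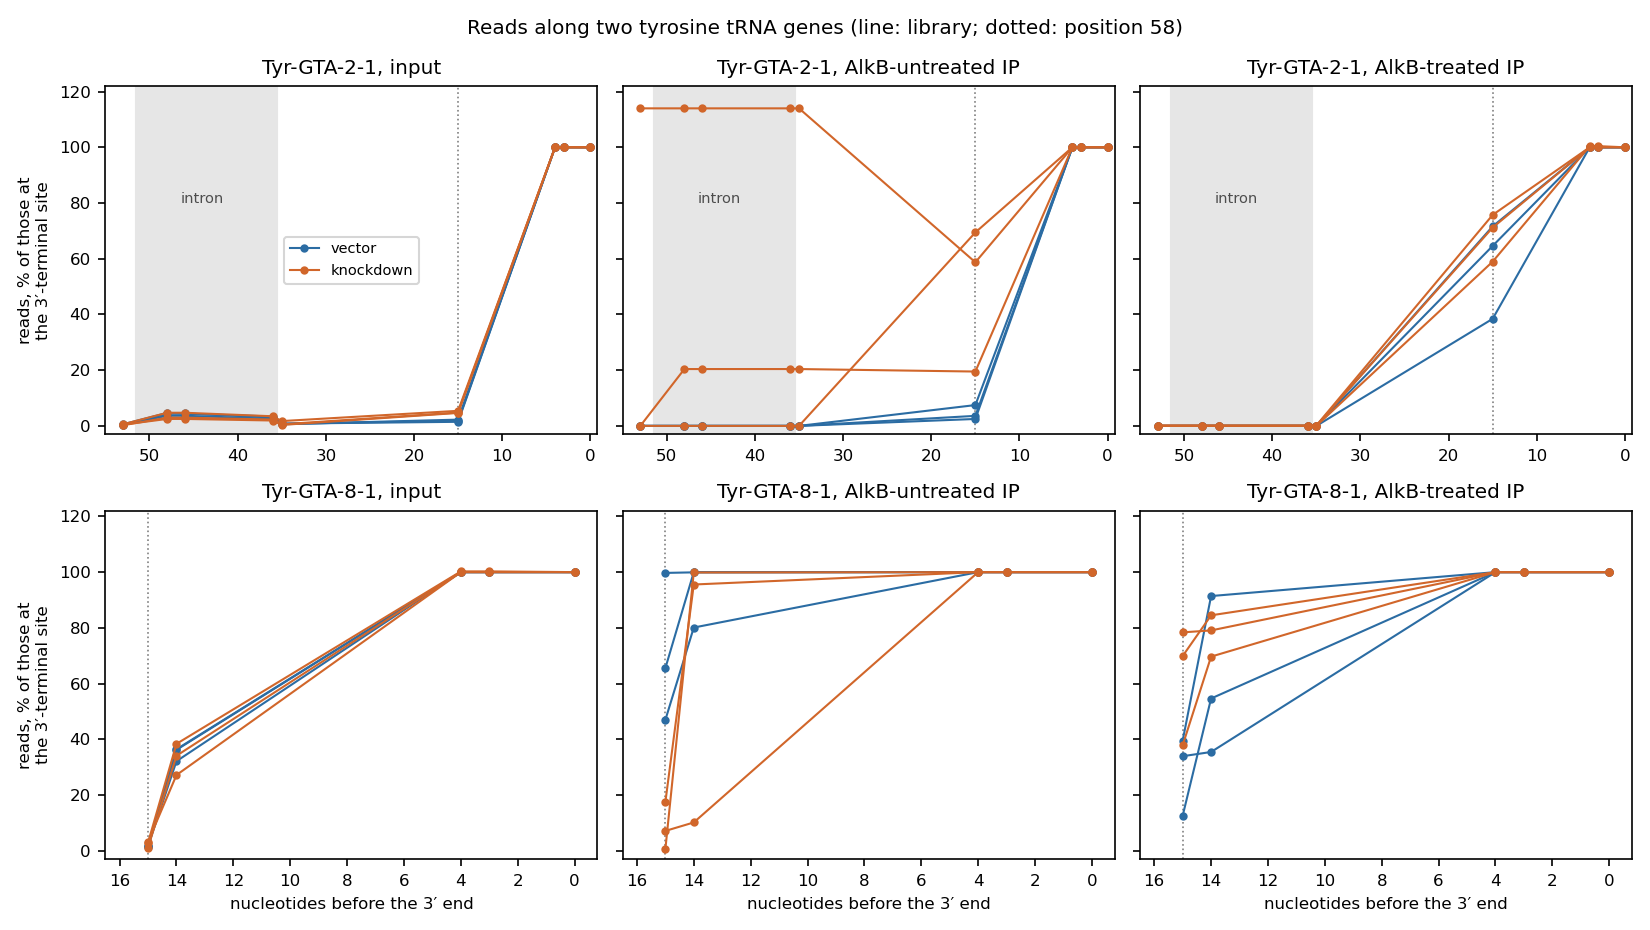
Reads at each listed site of Tyr-GTA-2-1 (top) and Tyr-GTA-8-1 (bottom) as a percentage of reads at the 3′-terminal site, against distance from the 3′ end in nucleotides. Each line is 1 library, the grey band is the intron and the dotted line is position 58. Input reads fall to a few percent at position 58, and 1 knockdown library without AlkB stays above 100% through the intron.

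The amount of tyrosine tRNA was read from the 3′-end reads, which lie 3′ of A58. Levels here are relative to the other tRNAs, and in bulk RNA a lower share cannot be told apart from a rise of others. The 7 genes together made up 27.2%, 25.1% and 26.3% of the 3′-end reads in vector input and 22.7%, 22.8% and 24.3% in knockdown input. These shares are of the 92 tRNA genes with listed 3′-end sites, not of all 180 genes or of all tRNA. All knockdown libraries lay below all vector libraries, with means of 26.2% ± 1.10 and 23.3% ± 0.861 (SD, n = 3).

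With edgeR's quasi-likelihood test, all 7 genes were called lower in knockdown input, where 21.6% of the 74 genes tested were called lower and 20.3% higher. The fall was greatest in Tyr-GTA-6-1 (log2 -0.45, adjusted p = 1.24e-07) and Tyr-GTA-3-1 (log2 -0.37, adjusted p = 9.69e-06), the pair with T59A and A69G. The log2 change was -0.31 in Tyr-GTA-8-1 by edgeR (adjusted p = 0.00047). In the group of 4 it was -0.18 to -0.26, with adjusted p of 0.00282 to 0.0473 by edgeR. As a share of 3′-end reads without the TMM scaling, Tyr-GTA-2-1 fell by 0.04 on the log2 scale, from 3.19% ± 0.0684 to 3.10% ± 0.222 (SD, n = 3) with overlapping libraries. Between 4 and 7 genes were called when 1 library was left out, with 4 when either the third vector or the second knockdown library was missing.

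The antibody fraction without AlkB held few 3′-end tyrosine reads. The share was 4.19%, 1.40% and 8.61% in vector and 3.42%, 10.7% and 4.18% in knockdown cells, well below every input library. In vector cells 6 of the 7 genes were called lower than in input (log2 -2.82 to -3.74, adjusted edgeR p 0.00527 to 0.00802), where 14.1% of 78 genes were called lower and 10.3% higher, and Tyr-GTA-8-1 was not (log2 -2.77, adjusted p = 0.0800). These calls fell to 0 without any filter on low counts, and to 0 when the first or the second pair of libraries was left out. In knockdown cells the 7 log2 changes ran from -3.57 to -1.40 and edgeR called 0 of them, with an unadjusted p under 0.05 in 6. Of 73 genes 5.48% were called, 4.11% lower and 1.37% higher. DESeq2 called 6 of the 7, and edgeR called 7 without the first IP library, which held few tyrosine reads.

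With AlkB, the share was 27.2%, 20.4% and 17.0% in vector and 15.9%, 16.2% and 14.2% in knockdown cells, all above the untreated libraries. Tyr-GTA-2-1 went from 0.579% ± 0.310 to 4.70% ± 0.744 of the 3′-end reads in vector cells (SD, n = 3), whereas Tyr-GTA-3-1 and 6-1 stood at 0.619% and 0.695% without and 0.835% and 0.845% with AlkB. EdgeR called 0 of 73 genes (0%) between the 2 portions in vector cells, with 17 genes at an unadjusted p under 0.05. DESeq2 called 4 tyrosine genes, and its calls over all genes were not counted. In knockdown cells edgeR called 0 of 75 (0%), with 8 at an unadjusted p under 0.05, and DESeq2 called 0.

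Between the lines, edgeR called 0 of 68 genes (0%) without AlkB and 0 of 71 (0%) with AlkB, with 2 and 4 genes at an unadjusted p under 0.05 and 0 tyrosine calls by DESeq2. With AlkB the share of the 7 genes was 21.5% ± 5.19 in vector and 15.5% ± 1.08 in knockdown cells (SD, n = 3), without overlap.

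**Figure D5:**
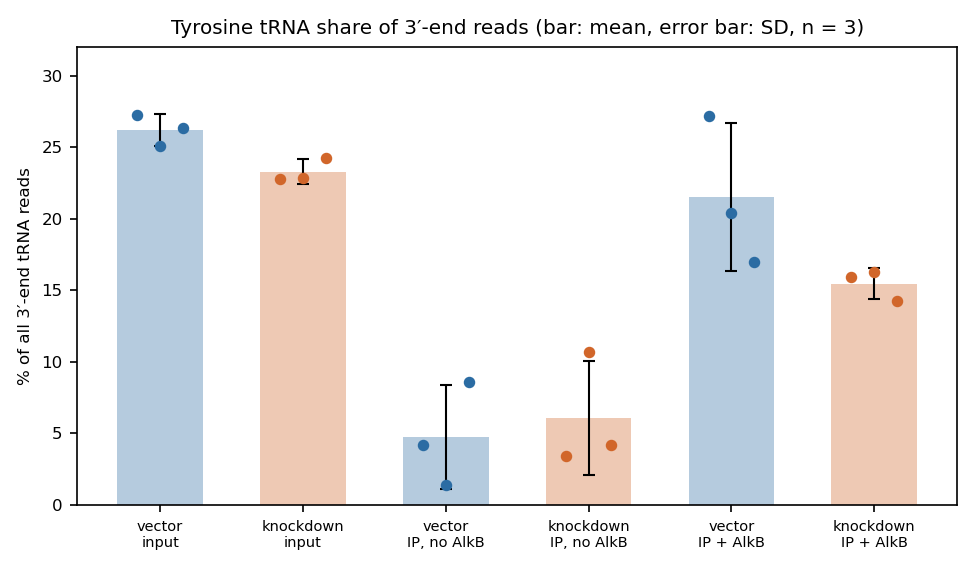
Share of the 7 tyrosine genes in the 3′-end reads of the 92 tRNA genes with listed 3′-end sites, in percent. The axis is linear from 0. Bars are means, error bars the SD and points the 3 libraries of each group. The share was 26.2% in vector input, 4.73% in the vector IP without AlkB and 21.5% with AlkB.

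Mismatches at A58 were rare among the reads that passed it. With the 6 genes pooled, 2 of 433 reads had a mismatch in vector input and 4 of 491 in knockdown input, and the IP groups had 0.461% to 0.777% of 2604 to 18606 reads. At A59 of the 3 genes that list it, the pooled rate was 0.756% in vector and 0.792% in knockdown input. Pooled rates over all groups ran from 0.461% to 0.815% at A58 and from 0.345% to 0.792% at A59.

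Per site, a quasi-binomial model of mismatched over total reads was fitted to sites with at least 20 reads in every library. It called 0 of the tyrosine sites in each of the 7 comparisons, where 18 to 27 of them could be tested. In input 0.528% of 379 tested sites were called, 0.264% in each direction. In the AlkB comparison of knockdown cells 0.402% of 249 were called, and in the other 5 comparisons 0%. Sites with an unadjusted p under 0.05 were 4 in all. With AlkB against without in knockdown cells, A73 of Tyr-GTA-8-1 went from 0.181% to 0.0381% (adjusted p = 0.316) and A58 of Tyr-GTA-5-5 from 0.114% to 0.921% (adjusted p = 0.580).

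Between the lines, A70 of Tyr-GTA-8-1 had 0.290% in vector and 0.0761% in knockdown with AlkB (adjusted p = 0.480), and A70 of Tyr-GTA-7-1 had 0.0856% and 0.221% without AlkB (adjusted p = 0.558). In input, intron base 6 of Tyr-GTA-2-1 had the smallest p, with 2.11% in vector and 0 of 89 reads in knockdown, which allows a rate of up to 3.37% (adjusted p = 0.544). Limma on the logit of the rate also called 0 tyrosine sites. In the authors' deposited table, the untreated rate exceeded the treated rate in at least 1 of 6 replicates at 40 of the 42 tyrosine sites, and in all 6 replicates at 0. At the 10 sites of the 5′ exons this was only the third knockdown replicate, whose treated library had 0 or 1 reads at each. The same count over all 725 listed sites was not made, so 40 of 42 has no background beside it.

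The tRNA genes whose log2 read-through followed that of the summed tyrosine reads most closely over the libraries were Val-AAC-1-1 (Pearson r = 0.875 over 18 libraries), Val-AAC-4-1 (0.874 over 18), Ser-AGA-3-1 (0.872 over 17), Val-CAC-1-7 (0.871 over 18) and Ser-AGA-2-6 (0.868 over 15), of 48 genes compared. All points share library and depth, and input against IP makes up most of the range. With the reads of each group summed, Val-AAC-1-1 had 0.867% and 1.60% in vector and knockdown input, 67.2% and 64.4% in the IP without AlkB, and 73.7% and 55.9% with AlkB. It was low in input like the group of 4, but high in the vector IP without AlkB, where that group had 4.25%.

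Leu-CAA, the other intron-containing tRNA with both kinds of site, had 25.6% ± 4.28 in vector input. In knockdown input it had 33.2% ± 5.15 (SD, n = 3). In the IP without AlkB it had 92.8% ± 12.3 and 83.0% ± 13.4, and with AlkB 71.2% ± 27.1 and 49.1% ± 24.0, with overlap between the lines in each fraction. The difference between the lines in its AlkB-untreated IP was thus opposite in sign to that of the group of 4. It had the same sign as that of all 6 tyrosine genes summed. There, knockdown over vector was 0.926, against 0.895 in Leu-CAA. These contrasts were not tested.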

How the data were processed

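The deposited table of m1A-MAP-seq gives, per adenosine site and library, the count of reads and of mismatched reads, not normalised, per the file headers. Its mismatch rate is a fraction deposited by the authors, equal to the quotient of both counts. The authors' deposited difference and fold (ratio) columns compare the untreated and treated rate of a replicate. The tools named in the submitters' processing notes are SAMtools 1.3.1, Bowtie2 2.2.4 and cutadapt 1.9.3, with build hg38. How sites were chosen and multi-mapping reads assigned is not given in the sources used here. Part of the table was not used here.

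Groups followed the labels. Read-through was tested with limma 3.58.1 on log2((reads at A58 + 0.5)/(3′-end reads + 0.5)), mismatch with a quasi-binomial logistic model in R 4.3.3, and rounded 3′-end reads (a median over sites) with edgeR 4.0.16 (TMM factors, filterByExpr). All tests were two-sided, with Benjamini-Hochberg adjustment over all genes or sites at 0.05. Comparisons within a line had the replicate number as a blocking factor, since the labels' protocols divide 1 RNA sample into the fractions. Deviations of same-numbered libraries had correlations over genes of 0.0023 to 0.19 for IP against input. These were -0.62 to -0.12 for AlkB in vector, -0.19 to 0.045 for AlkB in knockdown and -0.12 to 0.50 between the lines. In the AlkB comparison of vector cells, same-numbered libraries thus did not deviate together. The limma, quasi-binomial and edgeR fits were tried on simulated counts for knockdown against vector in input. The fits with a block, the interaction fits and the IP comparisons were not simulated. Alternatives were other count minimums (10 and 50), a pseudocount of 0.1, DESeq2 1.42.0 in place of edgeR, no filter, the quasi-binomial model for read-through, summed copies, the block and leaving out each library. All tyrosine genes with both sites were named, with up to 3 sites per comparison by smallest unadjusted p and the 5 genes most alike in read-through. The members, lists and tests were chosen with earlier results of these data known.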

Additional observations from a re-analysis of the deposited data

Results flagged for a closer look

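The difference between the AlkB effects of both lines on read-through, tested by an interaction term in limma, was -3.10 on the log2 scale in Tyr-GTA-2-1 and -2.85 in Tyr-GTA-5-4, and stands out because the contrast differed between knockdown and vector cells. Both genes share their 3′-end reads, so this is 1 observation rather than 2.

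Reads inside the intron of Tyr-GTA-2-1, outside the main measurement, reached 91 in the second and 1215 in the third AlkB-untreated knockdown library, whereas the AlkB-untreated vector libraries had 0. The third AlkB-untreated knockdown library also had counts that sum to 2962 over the 10 listed sites of the 5′ exons. A read that covers several sites counts there more than once. The counts of the AlkB-untreated vector libraries sum to 0 or 1. The cause was not tested.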

How the results depend on the processing

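Counts of tyrosine genes called depended on single libraries. For the alternative fits below, calls over all tRNA genes were not counted, so these counts have no background beside them. When 1 library (or pair) was left out, read-through calls ranged from 0 to 4 for knockdown against vector in input, 0 to 4 without AlkB, 0 to 1 and 0 to 3 for IP against input in vector and knockdown, 0 to 4 and 0 to 1 for AlkB in vector and knockdown, and 0 to 5 for both differences of differences. For 3′-end reads the ranges were 4 to 7 for knockdown against vector in input, 0 to 7 for IP against input in each line, and 0 to 4 for AlkB in vector. Fewer libraries leave fewer degrees of freedom. With the replicate block, which the labels do not establish between lines, read-through calls in input went from 5 to 0. Removing the block where it was used changed no count of calls by more than 1.5 times. The quasi-binomial model called 1 gene in input, 2 for AlkB in vector and 0 for IP against input in both lines. A minimum of 50 reads, which drops low-count genes, gave 0 calls for IP against input in both lines. DESeq2 called 6 genes in 3′-end reads of knockdown IP against input and 4 for AlkB in vector, where edgeR called 0, and without a filter on low counts the 6 calls in vector became 0. Copies summed into 1 anticodon, which allows 1 call at most, were called in input (read-through and 3′-end reads), in 3′-end reads of IP against input in both lines and in 3′-end reads of AlkB in knockdown, but gave 0 read-through calls for knockdown IP against input, for AlkB in vector and for the added difference of AlkB effects.

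Summed read-through of all 6 genes was 1.48% in vector and 3.06% in knockdown input, and 2.12% and 4.25% against the nearest listed site, since A59 lies closer than the 3′ end. In the AlkB-treated knockdown IP it was 61.9%, and 50.7% with genes weighted as in vector input. Reversed values came from uncalled genes. Between the lines with AlkB, Tyr-GTA-5-4 gave -0.018 to 0.46, Tyr-GTA-5-5 -0.025 to 0.44 and Tyr-GTA-6-1 -2.91 to 0.62. In knockdown, Tyr-GTA-8-1 gave -0.064 to 1.86 for IP against input and Tyr-GTA-7-1 -0.10 to 1.41 for AlkB. For AlkB in vector, Tyr-GTA-6-1 gave -1.16 to 6.98, and -0.69 with the quasi-binomial model; the cause was not tested.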
